A study of Mus musculus with 18 samples.

Results

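The genes described here are 10 components of cytokine signalling through Janus kinases (JAKs): the kinases Jak1 and Jak2, the transcription factors Stat3, Stat5a, Stat5b and Stat6, and the feedback inhibitors Socs1, Socs2, Socs3 and Cish. They were chosen by gene name and make up 10 of the 22708 genes of the deposited table. All 10 were present there, and their symbols matched their gene identifiers.

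A cytokine brings its receptor chains together, the JAKs bound to those chains phosphorylate each other and the receptor, and the STAT proteins that dock there are phosphorylated and move to the nucleus. Genes that STATs switch on include those of the SOCS family and Cish, whose proteins bind the receptor or the kinase and dampen the signal, so their transcripts are often read as a sign of recent cytokine exposure. In eosinophils the pathway carries the signals of IL-5, IL-3 and GM-CSF, which share a common beta chain and act on survival, and those of IL-4 and IL-13.

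RNA was sequenced in bulk from eosinophils sorted from the small intestine of C57/BL6 mice as CD11b+, MHC-II-, SiglecF+ cells of high side scatter. There were 18 samples in 3 groups of 6: wild type (WT), Ahr-/-, labelled as lacking the aryl hydrocarbon receptor, and Ahrr-/-, labelled as lacking its repressor, each with 3 males and 3 females. Ages are not given in the labels. The methods give an age range in weeks for the study's mice, matched for age within experiments, but no age per sample. According to the methods, WT and Ahr-/- mice were neither littermates nor housed together, so litter and housing cannot be told apart from genotype, and whether the Ahrr-/- mice shared litters or cages with the others is not described. Values are given as deposited, after a variance-stabilizing transformation to a log2 scale, on which 5.02 stands for a count of 0. This transformation shrinks differences of genes with low counts, so where voom on the recovered counts gave more than 1.5 times the difference of a member or pathway gene called, or of Socs3, its value or the ratio of mean normalized counts is given beside it. The total count per sample, recovered from these values, ranged from 3842977 to 8149200 in WT (median 6022410), from 6581818 to 10284124 in Ahr-/- (median 9647590) and from 8788867 to 12046933 in Ahrr-/- (median 10371556). Low counts were therefore least precise in WT.

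The transcripts of the deleted genes were examined first, as a check of the labels. Ahr ranged from 13.40 to 14.40 in WT (median 13.76) and from 14.15 to 14.67 in the libraries labelled Ahr-/- (median 14.55). It was thus not lower in the latter, with a difference of 0.61 (SE 0.19, limma adjusted p = 0.0557). The difference passed the threshold without WT F2 (0.70, adjusted p = 0.0298) or WT M1 (0.74, adjusted p = 0.0145), and with a minimum mean of 3 (0.0435), quantile normalization (0.0278), a replicate block (0.0361), no mean-variance trend (0.04) or voom (0.04), and over all alternatives the adjusted p lay between 0.0145 and 0.155. Ahrr, which AHR induces, ranged from 9.79 to 10.39 in WT (median 10.12), from 5.02 to 5.79 in the libraries labelled Ahr-/- (median 5.25) and from 9.95 to 10.93 in those labelled Ahrr-/- (median 10.37). Its difference between Ahr-/- and WT was -4.83 (SE 0.14, adjusted p = 4.95e-12) on the deposited scale and -9.51 by voom, the mean normalized count in WT was 487 times that in Ahr-/-, and only 14 counts were found over the 6 libraries labelled Ahr-/-. The Ahrr transcript was not lower in the libraries labelled Ahrr-/- than in WT (0.28, SE 0.18, adjusted p = 0.683). The extent of each deletion is not known and transcripts were counted along the entire gene, so the groups are named as labelled, and each direction below is between libraries with those labels.

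Before the genotypes were compared, libraries that stood apart were sought. Across the genes tested, each sample's median Pearson correlation with the other samples lay between 0.940 and 0.969, except in Ahrr-/- M1 (0.915) and Ahrr-/- M3 (0.905). These are correlations across genes, which are not independent replicates. The libraries WT F3 and Ahr-/- F3 had a count for 20244 and 19694 genes, against 15146 to 17236 in the others. The comparisons of Ahrr-/- with WT and with Ahr-/-, and that of the sexes, were repeated without M1 and M3, a choice made after seeing the data, and the calls lost among the members and lists, and the members' changes of sign, are given below.

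The cell type was checked against marker lists. Of 12 eosinophil markers, Alox15 was the most abundant, and the summed normalized count of the list ranged from 31283 to 47344 in WT (median 43537), from 45891 to 58055 in Ahr-/- (median 52192) and from 17634 to 47800 in Ahrr-/- (median 38622). Siglecf, the surface marker of the sort, had medians of 11.09, 11.42 and 10.79 in the same order, whereas 5 list genes were below the minimum mean for testing: the granule protein genes Epx and Prg3 and the ribonuclease genes Ear1, Ear2 and Ear6, the last with a median count of 0. These genes other than Ear6 were named after their values were seen. The epithelial list of 14 genes, led by Lyz1, ranged from 11081 to 30635 in WT (median 14539), from 11061 to 15673 in Ahr-/- (median 11517) and from 13335 to 79824 in Ahrr-/- (median 38615). Its highest sums were those of Ahrr-/- M1 (79824) and Ahrr-/- M3 (66468), so the level of these markers differed between libraries. In bulk samples, fewer cells of a type and less RNA per cell cannot be told apart.

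Among the members, the kinases had the highest level per length. Per kilobase of merged exons, the mean normalized count in WT was 560 for Jak1 (lowest 502, highest 639), the kinase shared by gp130, interferon and gamma chain receptors, and 429 for Jak2 (lowest 324, highest 502), the kinase of the common beta chain. Stat6, the factor downstream of IL-4 and IL-13, followed with 285 (lowest 210, highest 347), then Stat3, which serves IL-6 family cytokines and IL-10, with 179 (lowest 148, highest 245). Stat5b and Stat5a, the factors downstream of IL-5, IL-3 and GM-CSF, had 94.4 (lowest 71.6, highest 115) and 29.6 (lowest 19.6, highest 40.1). Of these neighbours in the order, Jak1 and Jak2 met at their limits, Jak2 overlapped Stat6 and Stat6 overlapped Stat3, whereas the ranges of Stat3 and Stat5b, and of Stat5b and Stat5a, were apart.

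Of the inhibitors, the mean per kilobase of Socs2 and Cish lay between Stat5b and Stat5a in WT, and Socs3 and Socs1 below. The order of the members depends on the length used, the merged exons of all annotated transcripts (9531 bases for Socs2, 6419 for Cish). By mean normalized count in WT, Socs2 (789) was above Stat5b (523) and Cish (494) below it, and Stat3 (1701) was above Stat6 (1255). Socs2, which acts on growth hormone and other cytokine receptors, had 82.8 per kilobase in WT (lowest 39.5, highest 139). Cish, an inhibitor of STAT5 signalling, had 77 (lowest 27.5, highest 121). Their ranges overlapped each other and those of Stat5b and Stat5a. Socs3, an inhibitor of gp130 and G-CSF receptor signalling, had 19.1 (lowest 10.8, highest 27.5), overlapping Stat5a. Socs1, which inhibits JAK kinases directly after interferon gamma or IL-4, was the least abundant with 1.34 (lowest 0.411, highest 2.13). Its raw counts lay between 1 and 14 over the 18 libraries, and it did not reach the minimum mean for testing. In a fit with no minimum mean it differed by 0.10 in Ahr-/- against WT (limma adjusted p = 0.788), 0.05 in Ahrr-/- against WT (0.893), -0.05 in Ahrr-/- against Ahr-/- (0.855) and -0.09 between males and females (0.673), and was not called. The other 9 members were tested in every comparison. In the libraries labelled Ahr-/- the mean per kilobase of Cish was 114 (lowest 73.1, highest 184), apart from that of Socs2 with 23.5 (lowest 16.5, highest 32.7), which there overlapped Socs3 with 17.3 (lowest 9.7, highest 25.4). In those labelled Ahrr-/- Cish had 89.7 (lowest 28.3, highest 165), Socs2 82.8 (lowest 46.1, highest 140) and Socs3 36.8 (lowest 22, highest 54.1), and these 3 ranges overlapped.

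**Figure D1:**
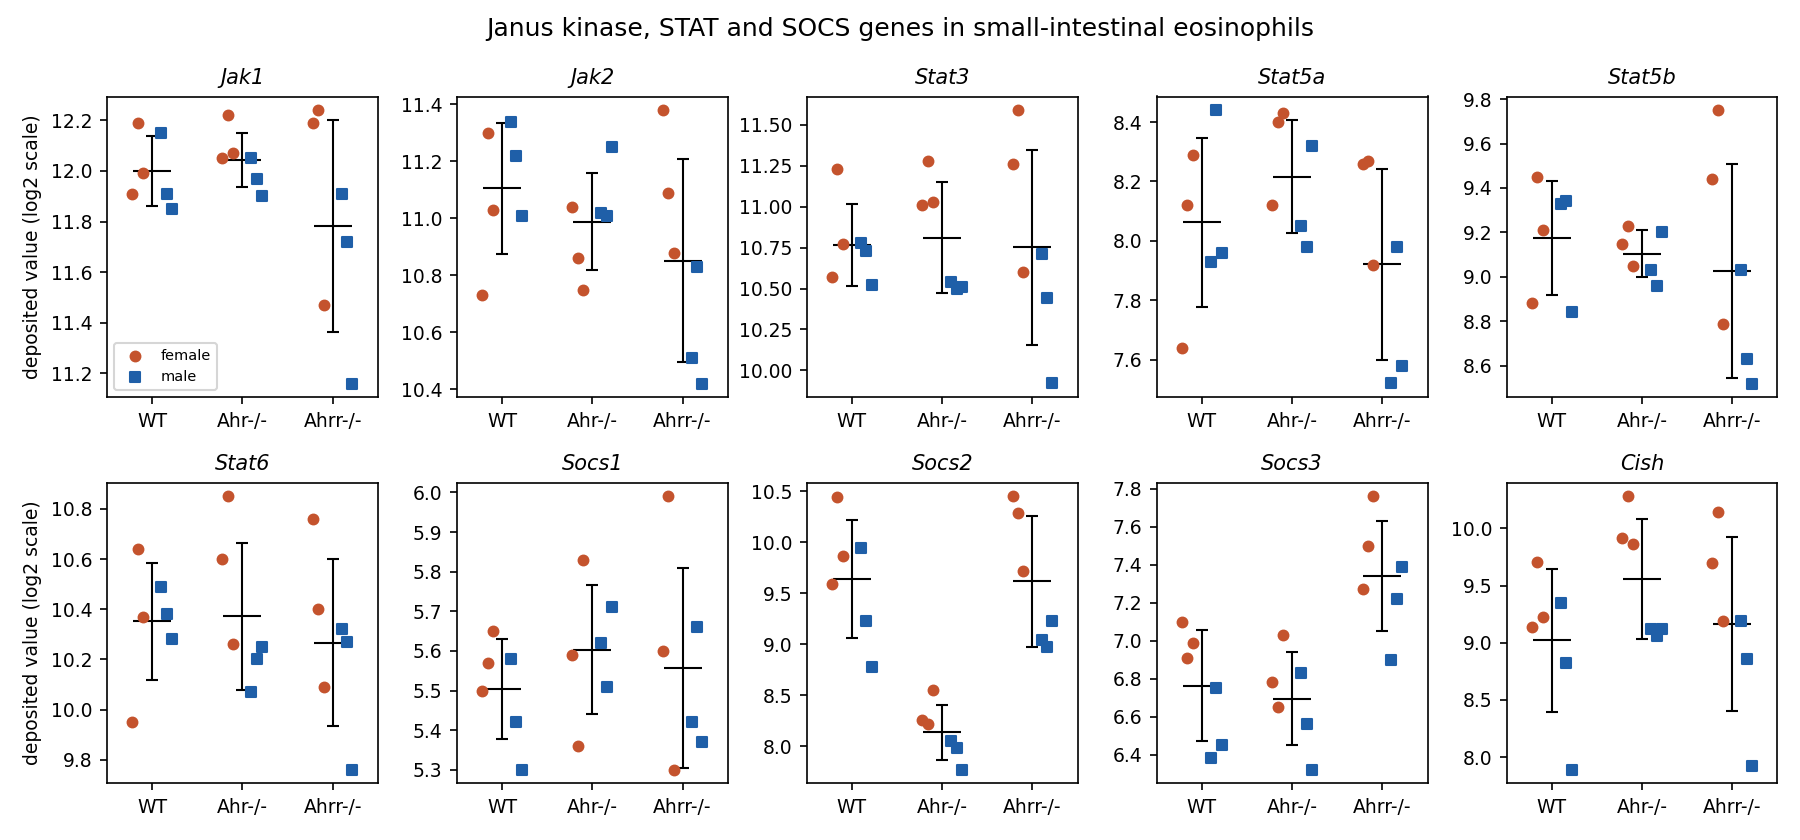
Deposited value (log2 scale, y axis) of the 10 members in WT, Ahr-/- and Ahrr-/- (x axis). Each point is 1 library (circles female, squares male), and the horizontal mark with bars is the mean ± SD over 6 libraries; the Socs2 values of Ahr-/- lie below those of both other groups.

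Of the members, 3 STAT genes lie together on chromosome 11. In the GENCODE annotation of GRCm38, Stat5b (chr11:100780731-100850724, minus strand) and Stat5a (chr11:100859351-100885169, plus strand) are separated by 8626 bases. Stat5a and Stat3 (chr11:100885098-100939540, minus strand) share 72 bases at their 3' ends on opposite strands. Reads from those bases cannot be assigned without strand, which the sources do not describe. The feedback genes are dispersed: Socs2 (chr10:95385362-95417180, minus strand), Socs3 (chr11:117966079-117970047, minus strand) and Cish (chr9:107296026-107302784, plus strand).

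Because STAT proteins bind palindromes of the form TTCNNNGAA and AHR binds the core GCGTG, both were sought, on both strands, in RefSeq promoter windows of GRCm38.p6 (250 bases before and 50 after the start). Windows were found for 9 of the 10 members, 11 windows in all, and Socs2 had no entry. TTCNNNGAA was found in 2 of these windows, against 8.3% of all 32851 windows, and GCGTG in 4, against 32.4%. The TTCNNNGAA matches were in the feedback genes Cish (2 matches, from base 1 and base 12 after the start) and Socs3 (154 bases before the start). GCGTG was found for Jak1 (1 match), Jak2 (4), Stat3 (1) and 1 of 2 windows of Stat5b. The stretches with TTCNNNGAA are shown because they hold all matches of that motif in the members' windows; they are Cish at chr9:107296654-107296683 (plus strand) and Socs3 at chr11:117969501-117969530 (minus strand), read 5' to 3' on the gene's strand with the matches in capitals.
Cish: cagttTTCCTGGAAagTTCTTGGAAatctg
Socs3: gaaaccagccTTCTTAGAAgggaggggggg
These matches are a description of the letters in the windows.

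In the comparison of Ahr-/- with WT, 1 of the 9 tested members was called. Socs2 ranged from 8.78 to 10.44 in WT (median 9.73) and from 7.77 to 8.55 in the libraries labelled Ahr-/- (median 8.13). Every Ahr-/- library lay below every WT library. As normalized counts, the medians were 789 in WT and 220 in Ahr-/-, and the mean in WT was 3.51 times that in Ahr-/-. Socs2 fell by 1.50 on the log2 scale (SE 0.18, limma adjusted p = 4.27e-05), and over all alternatives its adjusted p lay between 1.05e-05 and 3.29e-04. Over all 11346 genes tested, 1003 were called (8.84%), 585 of them higher (5.16%) and 418 lower (3.68%), and 512 had groups that did not overlap (4.51%). The members' 1 call of 9 (11.1%), which was also their 1 gene without overlap, is near that background share. Without Ahr-/- F1, 623 genes were called.

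Cish, the other abundant feedback gene, ranged from 7.89 to 9.71 in WT (median 9.18) and from 9.06 to 10.28 in the libraries labelled Ahr-/- (median 9.49). The groups overlapped, with WT M3 lowest. The difference was 0.54 (SE 0.19, adjusted p = 0.0939) and did not pass the threshold. It did without WT M1 (0.70, adjusted p = 0.0116), and over all alternatives the adjusted p lay between 0.0116 and 0.266. Socs3 differed by -0.07 (SE 0.13, adjusted p = 0.785), or -0.18 by voom.

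The kinases and STATs were not called between Ahr-/- and WT. Their differences ran from -0.12 for Jak2 (SE 0.11) to 0.15 for Stat5a (SE 0.14), with adjusted p between 0.546 and 0.947. The median difference of the 9 members was 0.02, and that of all genes tested was 0. The missed threshold does not show that these levels were the same.

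**Figure D2:**
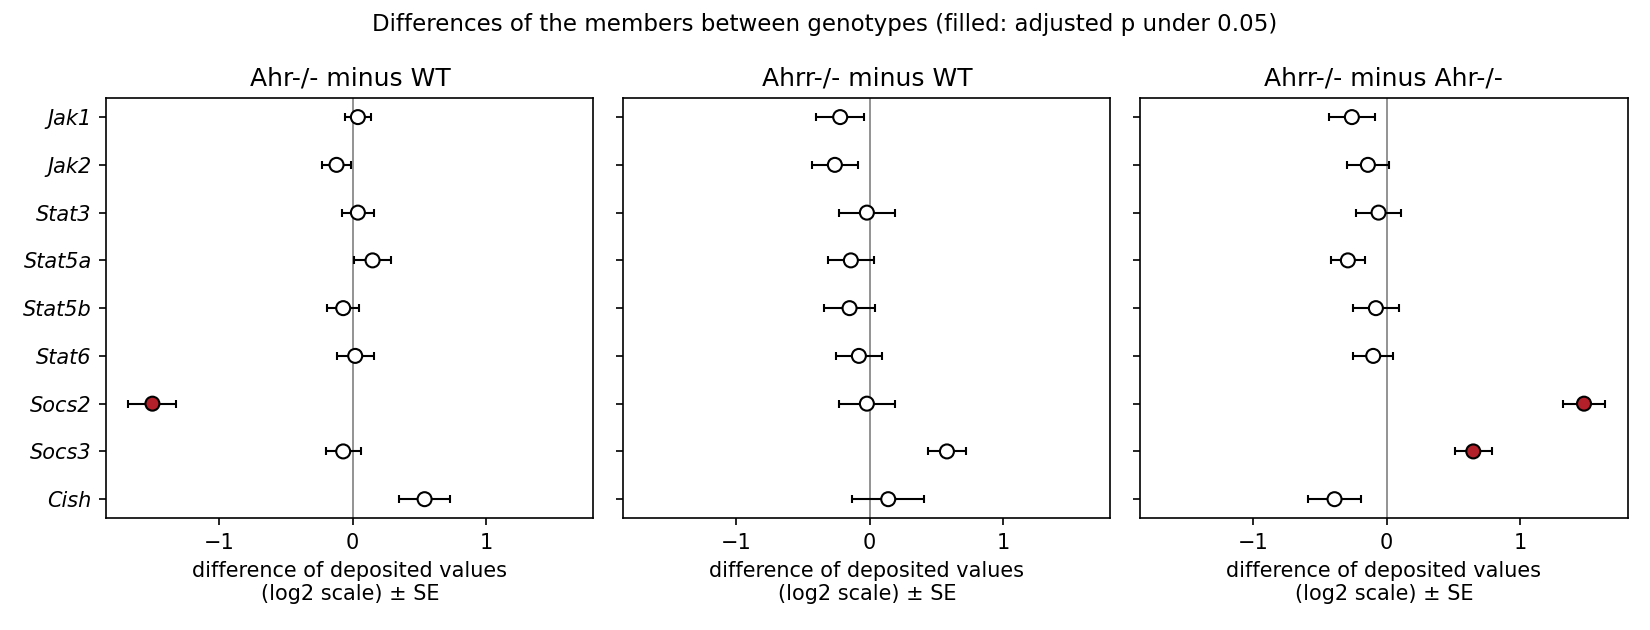
Difference of deposited values between genotypes (x axis, log2 scale) for the 9 tested members (y axis) in the 3 comparisons. Points are limma estimates with bars of 1 SE, filled where the adjusted p is under 0.05; Socs2 is at -1.50, -0.02 and 1.48 from left to right.

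Among 94 other genes of the pathway, 68 were tested, of which 7 were called higher and 4 lower in the libraries labelled Ahr-/-, with a median difference of 0.01. The share called was 16.2%, against 8.84% of all genes tested, and the 2 shares were not compared by a test. Of the 11 calls, 7 held in every alternative that tested the gene. Csf2rb, the beta chain shared by the receptors of IL-5, IL-3 and GM-CSF, ranged from 12.17 to 12.90 in WT (median 12.69) and from 10.89 to 11.45 in Ahr-/- (median 11.23). It fell by 1.45 (SE 0.12, adjusted p = 1.39e-06). Its paralog Csf2rb2, the beta chain used by IL-3 alone, ranged from 10.63 to 11.49 in WT (median 11.19) and from 8.88 to 9.82 in Ahr-/- (median 9.45), and fell by 1.78 (SE 0.15, adjusted p = 1.31e-06). In both genes every Ahr-/- library was below every WT library. Because the paralogs are alike in sequence, reads can be split between them by the counting, and the value of each gene alone is uncertain. Il13ra1, a chain of the IL-13 receptor, ranged from 8.40 to 8.85 in WT (median 8.48) and from 9.16 to 9.60 in Ahr-/- (median 9.45). It was higher by 0.85 (SE 0.11, adjusted p = 1.15e-04), with no overlap. These were 3 of the 9 tested chains of the common beta and gamma receptors. Il5ra, the chain specific to IL-5, had medians of 11.08 and 11.45 in groups that overlapped, and was not called.

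In the list of gp130, interferon and other receptor chains, 2 of 16 tested genes were called. Csf3r, the G-CSF receptor, was higher by 0.59 (SE 0.14, adjusted p = 0.0145), and Ifngr2, a chain of the interferon gamma receptor, fell by 0.48 (SE 0.11, adjusted p = 0.0103). Of 17 ligands only 4 were tested, and Il5, Il3 and Csf2 had mean normalized counts of 2.2 or less in WT and Ahr-/-. Il4 ranged from 8.35 to 8.71 in WT (median 8.64) and from 8.73 to 9.54 in Ahr-/- (median 9.28), higher by 0.59 (SE 0.13, adjusted p = 0.0097) with no overlap. Il6 had a median of 7.68 in WT (highest 9.73) and of 8.86 in Ahr-/- (highest 11.19), higher by 1.46 (SE 0.40, adjusted p = 0.0334) in groups that overlapped.

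Among the inhibitors, Cblb, a ubiquitin ligase that restrains receptor signalling, was the 1 called of 12 phosphatases and other inhibitors. It ranged from 9.29 to 10.37 in WT (median 9.98) and from 10.70 to 11.58 in Ahr-/- (median 11.07), higher by 1.20 (SE 0.17, adjusted p = 2.51e-04) without overlap. Socs4 was the 1 called of 4 other SOCS genes and fell by 0.34 (SE 0.10, adjusted p = 0.0398) in groups that overlapped. Of 5 other kinases and STATs, Jak3, the kinase of the gamma chain, was higher by 0.51 (SE 0.11, adjusted p = 0.00651; 0.85 by voom), with WT between 6.66 and 7.01 and Ahr-/- between 7.13 and 7.54. Of 18 tested STAT target genes, Myc, a growth regulator, was the 1 called. It ranged from 8.85 to 9.51 in WT (median 9.01) and from 9.78 to 10.44 in Ahr-/- (median 10.07), higher by 0.99 (SE 0.12, adjusted p = 3.63e-05).

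Socs2, Csf2rb, Csf2rb2, Il13ra1, Csf3r, Ifngr2, Il4, Cblb, Jak3 and Myc stayed called in Ahr-/- against WT whichever single library was left out. The call of Socs4 was lost without any library other than WT F1 or WT M3 (differences from -0.37 to -0.30, adjusted p up to 0.103), and over all alternatives its adjusted p lay between 0.0248 and 0.177. That of Il6 was lost without WT F3 (1.38), WT M3 (1.34), Ahr-/- F1 (1.39), F2 (1.20), M2 (1.44) or M3 (1.49), with adjusted p between 0.0614 and 0.083 there and between 0.00835 and 0.108 over all alternatives. With all 18 samples in the fit, Csf3r (adjusted p = 0.0601) and Il4 (0.0806) were not called, the highest of their alternatives; the lowest were 0.00923 and 0.0047.

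**Figure D3:**
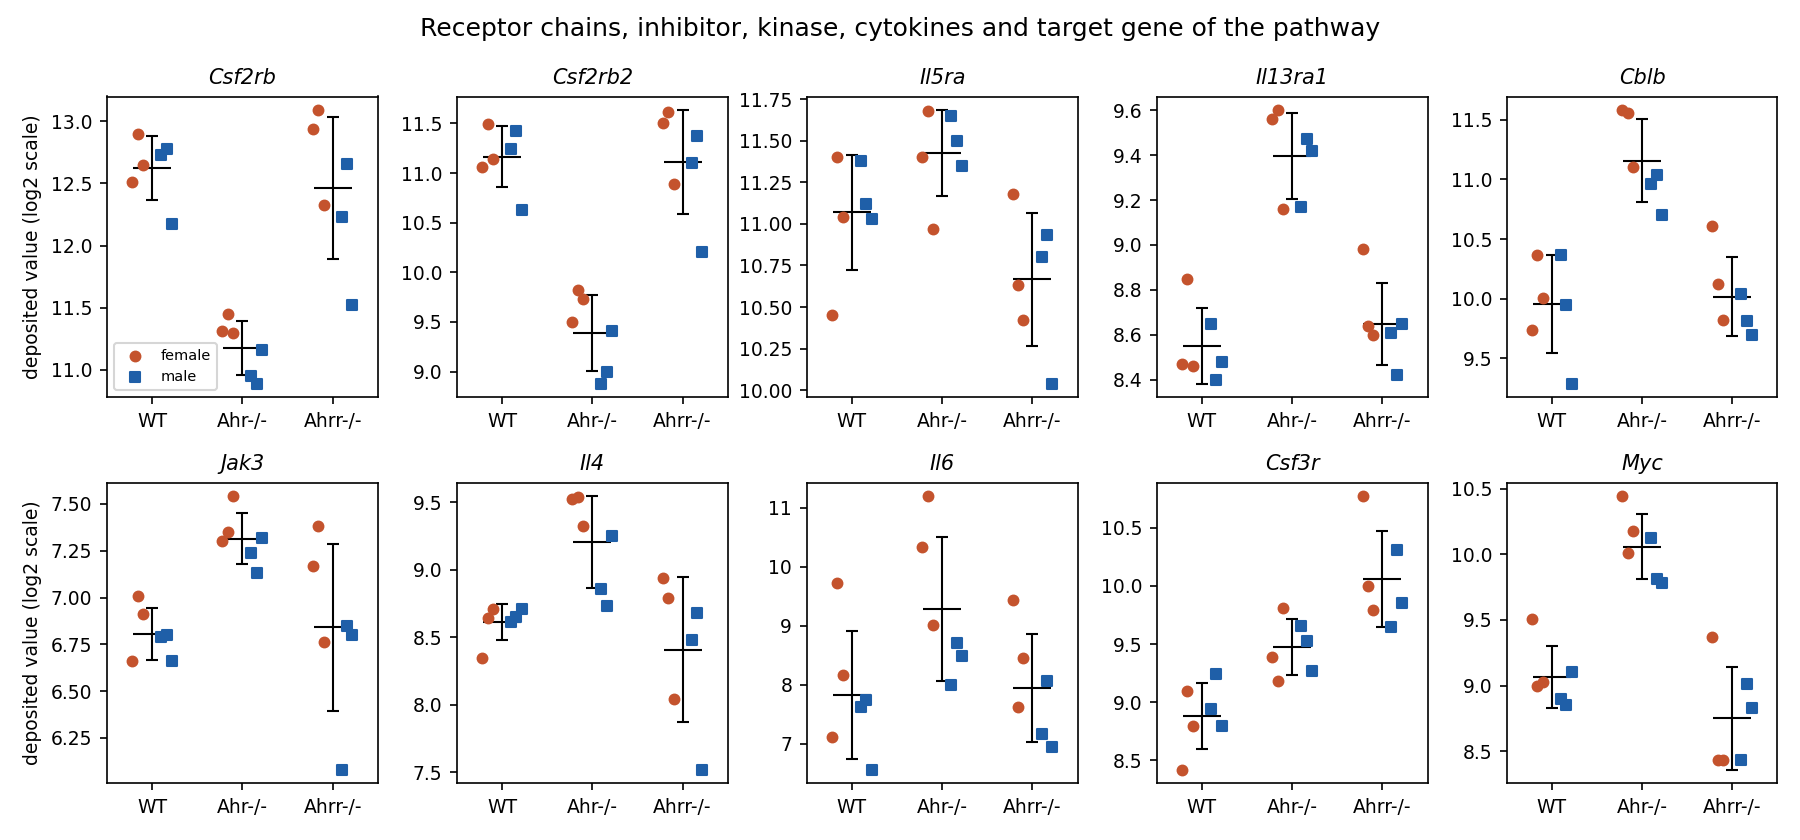
Deposited value (log2 scale, y axis) of 10 other genes of the pathway in WT, Ahr-/- and Ahrr-/- (x axis). Points are libraries (circles female, squares male) and marks with bars are the mean ± SD over 6 libraries; in Csf2rb and Csf2rb2 the Ahr-/- libraries lie below every WT library, and in Il13ra1, Cblb and Myc above.

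Some genes of the marker lists were also called between Ahr-/- and WT. Outside the eosinophil list these included Retnlg and Itgax (higher) and Pecam1 and Ctrb1 (lower), each the most abundant of its list. Lyz1 and Dusp1, the most abundant of the epithelial and immediate early lists, were not called. In the neutrophil list (11 genes, led by Retnlg), 2 of 7 tested genes were called higher and 1 lower, and the summed count ranged from 24276 to 49049 in WT (median 36202) and from 56089 to 113776 in Ahr-/- (median 84338). Without Retnlg the medians were 846 and 1178, and 5 of the 7 tested genes had positive differences. Ly6g, Mpo, Elane and Camp had median counts of 0. Their mean normalized counts were 1.38, 6.54, 0 and 2.06 in WT and 1.1, 1.57, 0 and 17 in Ahr-/-. In the list of pancreatic acinar genes (13, led by Ctrb1), 3 of 8 were called lower, with sums from 83.2 to 4701 in WT (median 1507) and from 43.3 to 600 in Ahr-/- (median 108). Of the epithelial list 2 of 14 were called lower, and of the eosinophil list 2 of 7 higher. The fibroblast and endothelial list (8 genes, led by Pecam1) had 1 of 3 called lower, with sums from 2637 to 3841 in WT (median 3369) and from 1921 to 2374 in Ahr-/- (median 2145), and the macrophage, monocyte and dendritic cell list had 2 of 10 called higher and 1 lower, with median sums of 9483 and 11653. Without their most abundant genes, Pecam1 and Itgax, the medians of these 2 lists were 107 and 100, and 2383 and 2058. Of the dissociation and immediate early genes (14, led by Dusp1), 1 was called higher and 1 lower, with median sums of 64089 and 67918. Some alternative lost both epithelial calls, all 3 of the acinar list, 2 of 3 of the macrophage, monocyte and dendritic cell list, 1 of 2 eosinophil calls and 1 of 2 of the immediate early genes, but none of the neutrophil or the fibroblast and endothelial list. The part of these markers in the results above was not tested.

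The comparison of the libraries labelled Ahrr-/- with WT showed no called member. Socs2 ranged from 8.97 to 10.45 in Ahrr-/- (median 9.48), overlapping WT, and differed by -0.02 (SE 0.21, limma adjusted p = 0.974). Limma called 0 of 9 members, against 9 of 11546 genes (0.0779%), and all 9 of those were higher (0.0779%) and 0 lower (0%). Voom on the recovered counts also called 0 members and 4 genes, and without Ahrr-/- M1 and M3 limma called 0 members and 6 genes. Without single libraries limma called 4 genes (WT F1, F2, M2 or M3, Ahrr-/- F2, M2 or M3), 5 (Ahrr-/- F3), 6 (WT F3), 7 (WT M1 or Ahrr-/- M1) or 25 (Ahrr-/- F1). At an unadjusted p below 0.05, 1 member, Socs3, and 853 genes passed. No member had groups without overlap, against 53 genes (0.459%).

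Socs3 had the lowest p of the members in this comparison. It ranged from 6.38 to 7.10 in WT (median 6.83) and from 6.90 to 7.76 in the libraries labelled Ahrr-/- (median 7.33). The groups overlapped only through Ahrr-/- M1, which was below the 3 WT females. As normalized counts, the means were 55.3 (WT) and 106 (Ahrr-/-), and the difference was 0.58 (SE 0.14, adjusted p = 0.307), or 0.97 by voom. Without Ahrr-/- M1 and M3 it was 0.57 (adjusted p = 0.819), and over all alternatives the adjusted p lay between 0.112 and 0.819. The other 8 tested members differed by -0.26 (Jak2, SE 0.17) to 0.14 (Cish, SE 0.27). Without M1 and M3, Stat3, Stat5a, Stat6 and Socs2 changed sign, to 0.11, 0.04, 0.03 and 0.01.

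Of the 68 other pathway genes tested, Csf3r alone was called against WT (1.47%, against 0.0779% of all genes tested). It ranged from 8.42 to 9.24 in WT (median 8.87) and from 9.65 to 10.77 in the libraries labelled Ahrr-/- (median 9.92), without overlap, and was higher by 1.18 (SE 0.20, adjusted p = 0.0426). The call was lost without any library other than Ahrr-/- F1 or Ahrr-/- M1 (differences from 1.08 to 1.26, adjusted p up to 0.167), and it held without M1 and M3 together (1.38, adjusted p = 0.0349). It was also lost with no minimum mean (adjusted p = 0.0645), median centring (0.113), a replicate block (0.224), log2(count + 1) (0.0558) and voom (0.0738), and over all alternatives the adjusted p lay between 0.00426 and 0.224. Csf2rb ranged from 11.52 to 13.09 in Ahrr-/- (median 12.49) and Csf2rb2 from 10.20 to 11.62 (median 11.23), and both overlapped WT.

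Of the marker lists, the neutrophil list alone had called genes in this comparison. Of that list, 2 of 7 tested genes were called, S100a8 (2.06, SE 0.22, adjusted p = 6.67e-04) and S100a9 (2.10, SE 0.19, adjusted p = 2.20e-04), named here after their values were seen. Both were still called without M1 and M3 (1.97 and 2.03) and in every other alternative. The list without Retnlg ranged from 731 to 1144 in WT (median 846) and from 1744 to 4913 in Ahrr-/- (median 2209). Of its 7 tested genes, 6 had positive differences. Ly6g, Mpo, Elane and Camp had median counts of 0. Their mean normalized counts were 1.38, 6.54, 0 and 2.06 in WT and 1.96, 2.46, 1.43 and 33.9 in Ahrr-/-. None of 12 macrophage, monocyte and dendritic cell markers (list of 14, led by Itgax) was called, with sums from 7975 to 10474 in WT (median 9483) and from 8662 to 12778 in Ahrr-/- (median 9796). Without Itgax these were 1782 to 3332 (median 2383) and 1555 to 6764 (median 3745), and 10 of the 12 differences were positive. The fibroblast and endothelial list, with 0 of 7 called and 6 positive, ranged without Pecam1 from 89.2 to 299 in WT (median 107) and from 61.4 to 1678 in Ahrr-/- (median 421). The epithelial list had 0 of 14 called and all 14 positive, the immediate early genes likewise 0 and 14 of 14, the eosinophil list 0 of 7 called and 1 positive, and the acinar list 0 of 10 called and 1 positive. Over all genes tested, 51.7% of differences were positive. The B and plasma cell list (9 genes, led by Jchain) had sums from 293 to 1834 in WT (median 588) and from 369 to 6207 in Ahrr-/- (median 4028), with 0 of 4 called and all 4 positive. The list of mast cells and basophils was low in every group, with medians in WT, Ahr-/- and Ahrr-/- of 83.9, 110 and 191 (8 genes, led by Kit; Mcpt2, Mcpt4, Tpsb2, Cma1 and Mcpt8 had median counts of 0). The part of these markers in the Socs3 and Csf3r values was not tested.

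Ahrr-/- and Ahr-/- were compared directly, which involves no WT library. Of the 9 members 2 were called, both higher in the libraries labelled Ahrr-/-, or 22.2%, against 1708 of 11474 genes (14.9%), 923 of them higher (8.04%) and 785 lower (6.84%). Socs2, with 7.77 to 8.55 in Ahr-/- and 8.97 to 10.45 in Ahrr-/-, was higher in every Ahrr-/- library and differed by 1.48 (SE 0.16, adjusted p = 3.27e-05), or by 1.55 without Ahrr-/- M1 and M3. It was the 1 member without overlap, against 529 genes (4.61%). Socs3 ranged from 6.32 to 7.03 in Ahr-/- (median 6.71) and from 6.90 to 7.76 in Ahrr-/- (median 7.33), with only Ahrr-/- M1 inside the range of Ahr-/-. The mean normalized count in Ahrr-/- was 2.13 times that in Ahr-/-. The difference was 0.65 (SE 0.14, adjusted p = 0.00811), or 1.14 by voom, and without Ahrr-/- M1 and M3 it was 0.68 (adjusted p = 0.0199). Over all alternatives the adjusted p of Socs3 lay between 0.0026 and 0.0261, but with a minimum mean of 3 above the lowest value the gene was not tested. The other 7 differed by -0.39 (Cish, SE 0.20) to -0.06 (Stat3, SE 0.17), and Jak2 and Stat3 were 0.07 and 0.00 without M1 and M3.

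Of the 68 other pathway genes, 8 were called higher and 6 lower in Ahrr-/- than in Ahr-/- (20.6%, against 14.9% of all genes tested). Of these genes, 6 (Csf2rb, Csf2rb2, Il13ra1, Ifngr2, Cblb and Myc) were called in every alternative. Among the receptor chains of the common beta and gamma list, Csf2rb (1.28, SE 0.19, adjusted p = 5.73e-04) and Csf2rb2 (1.72, SE 0.19, adjusted p = 4.82e-05) were higher, and Il13ra1 (-0.75, SE 0.12, adjusted p = 0.0011) and Il5ra (-0.75, SE 0.19, adjusted p = 0.018) were lower. Il6ra and Il6st, the chains of the IL-6 receptor, were higher by 0.66 (1.41 by voom) and 0.77, Csf3r by 0.59 and Ifngr2 by 0.61. The ligands Il4 and Il6 differed by -0.80 and -1.34, and Cblb by -1.14 (adjusted p = 2.00e-04). Of the STAT targets, Myc differed by -1.31 (adjusted p = 2.32e-04), while Ccnd1, a cyclin, and Bcl3, a nuclear IkB protein, were higher by 0.84 (2.54 times by mean normalized count) and 0.67. The calls of 10 genes held without Ahrr-/- M1 and M3 (Csf2rb 1.51, Csf2rb2 1.86, Il13ra1 -0.78, Il6ra 0.83, Csf3r 0.76, Ifngr2 0.58, Cblb -1.18, Myc -1.28, Ccnd1 0.85 and Bcl3 0.74). Those of Il5ra, Il6st, Il4 and Il6 were lost there (adjusted p = 0.0741, 0.0706, 0.0664 and 0.121). The highest of their alternatives were 0.0741, 0.0903, 0.0664 and 0.121 and the lowest 0.00574, 0.0114, 0.0096 and 0.0111. Apart from single libraries left out, the alternatives gave differences of -0.82 to -0.59, 0.71 to 1.14, -0.97 to -0.67 and -1.68 to -1.23. Without the sex covariate 9 pathway genes were called, and the calls of Il6ra, Il6st, Csf3r, Il6 and Bcl3 were lost (adjusted p = 0.0529, 0.0903, 0.0572, 0.107 and 0.0773). That of Ccnd1 was lost with all 18 samples in the fit (adjusted p = 0.0637).

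Single libraries also decided some of these calls. Those of Il4 (-0.74) and Ccnd1 (0.77) were lost without Ahr-/- M3. That of Il6 was lost without Ahr-/- F1 (-1.27), F2 (-1.08), M2 (-1.31) or M3 (-1.36) or Ahrr-/- M3 (-1.28). The call of Il6ra was lost without any library other than Ahr-/- F3, Ahr-/- M2, Ahrr-/- F1 or Ahrr-/- M1 (differences from 0.54 to 0.71, adjusted p up to 0.103). That of Il6st was lost without Ahr-/- F1 (0.74), F2 (0.78), M1 (0.69) or M3 (0.79) or Ahrr-/- F3 (0.58), M2 (0.75) or M3 (0.67). That of Csf3r was lost without Ahr-/- F1 (0.56), F2 (0.51), M1 (0.64), M2 (0.61) or M3 (0.55) or Ahrr-/- M2 (0.52) or M3 (0.62). The number of genes called also moved, to 907, 970, 839, 933 and 818 without Ahr-/- F1, F2, M1, M2 and M3, to 2574, 1001 and 923 without Ahrr-/- F1, F3 and M3, and to 558 without Ahrr-/- M1 and M3 together.

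Epithelial markers were called higher in 9 of 14 genes in this comparison, and 4 of 7 eosinophil markers lower. Called were also 3 neutrophil markers higher and 1 lower of 7, 2 macrophage, monocyte and dendritic cell markers higher and 1 lower of 12, and, higher in each case, 2 of 4 B and plasma cell, 2 of 7 fibroblast and endothelial and 1 of 4 pancreatic acinar markers, and of 14 immediate early genes 1 was called higher and 1 lower. All 9 epithelial calls were lost without Ahrr-/- M1 and M3, as were both B and plasma cell, both fibroblast and endothelial and the acinar call, 2 of 4 eosinophil, 1 of 4 neutrophil, 2 of 3 macrophage, monocyte and dendritic cell and 1 of 2 immediate early calls. Over all alternatives 3 of the eosinophil calls were lost, and Prg2 alone held. The part of these markers was not tested.

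Sex was compared over all 18 libraries, with genotype in the model. Of the 9 members 2 were called, both lower in males, against 351 of 11468 genes (3.06%) in either direction. How many of the 351 were lower in males was not counted, so a shared direction is not read as particular to the members. The number of genes called was 134 without Ahrr-/- M1 and M3, 142 to 211 without WT F2, WT M3, Ahr-/- F1, F2, M1, M2 or M3 or Ahrr-/- F1, F2 or M3, and 577 to 733 without WT F1, WT M1 or Ahrr-/- F3. Socs2 in WT was 9.59, 9.87 and 10.44 in females and 8.78, 9.23 and 9.94 in males. In Ahr-/- it was 8.22, 8.26 and 8.55 in females and 7.77, 7.98 and 8.05 in males, and in Ahrr-/- 9.72, 10.29 and 10.45 in females and 8.97, 9.04 and 9.23 in males. The sexes were apart in Ahr-/- and in Ahrr-/- and overlapped in WT through WT M1. Over the genotypes the difference, male minus female, was -0.71 (SE 0.16, adjusted p = 0.018), and the female mean normalized count was 1.83 times the male.

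Cish in WT was 9.14, 9.23 and 9.71 in females and 7.89, 8.82 and 9.35 in males. It was 9.86, 9.92 and 10.28 in Ahr-/- females and 9.06, 9.12 and 9.12 in Ahr-/- males, and in Ahrr-/- 9.19, 9.70 and 10.14 in females and 7.92, 8.86 and 9.19 in males. The sexes were clearly apart in Ahr-/- alone, as in WT the male M1 overlapped the females and in Ahrr-/- the highest male met the lowest female. The difference was -0.87 (SE 0.19, adjusted p = 0.0165), with a female mean 1.91 times the male.

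**Figure D4:**
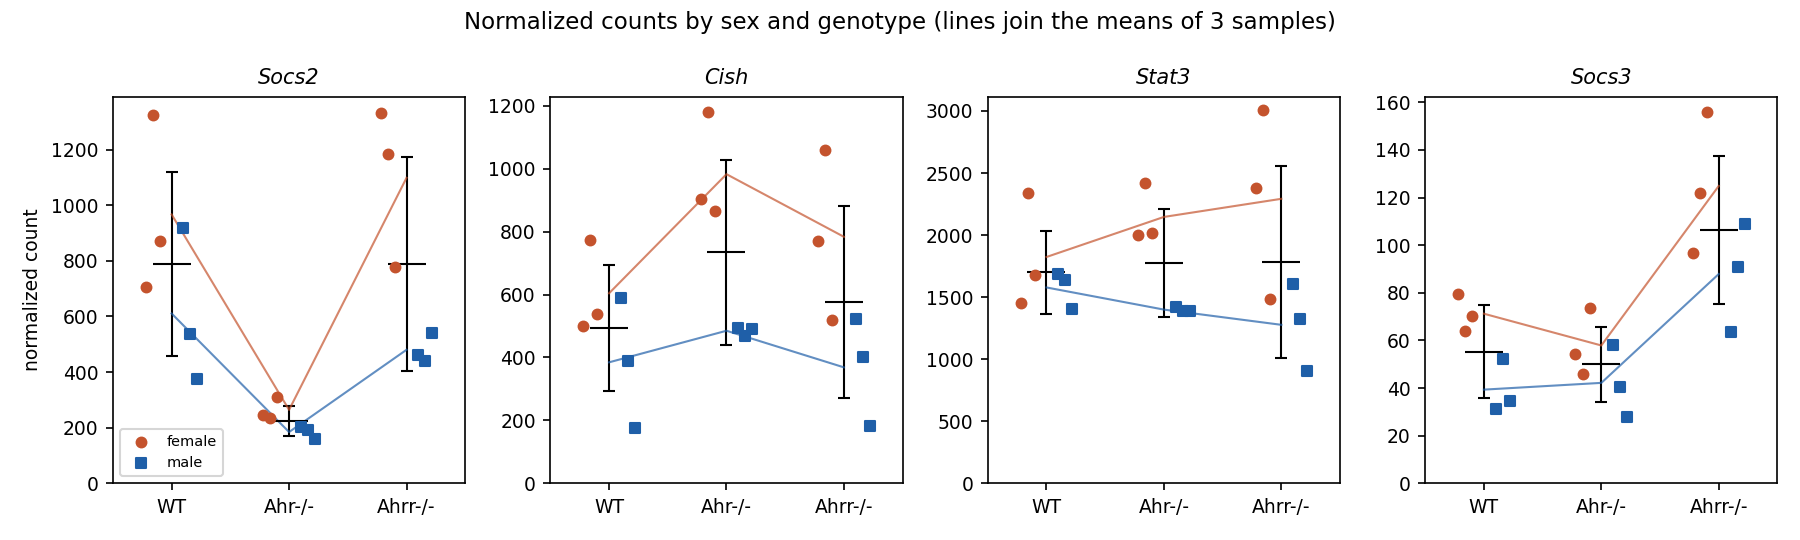
Normalized count (linear y axis) of Socs2, Cish, Stat3 and Socs3 in WT, Ahr-/- and Ahrr-/- (x axis). Points are libraries (circles female, squares male), lines join the means of 3 libraries per sex, and black marks with bars are the mean ± SD over 6; the female line lies above the male line in each genotype of all 4 genes.

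Stat3 (-0.52, SE 0.14, adjusted p = 0.0506) and Socs3 (-0.35, SE 0.11, adjusted p = 0.0721; -0.61 by voom) were lower in males by differences that did not pass the threshold. Stat3 did pass it without WT F1 (-0.58, adjusted p = 0.0172), WT F3 (-0.56, 0.0486), WT M1 (-0.56, 0.0302), Ahrr-/- F3 (-0.58, 0.0242) or Ahrr-/- M1 (-0.55, 0.0451), with a minimum mean of 3 (-0.52, 0.0403) and under quantile normalization (-0.41, 0.0446), and over all alternatives its adjusted p lay between 0.0172 and 0.117. Socs3 passed under median centring (-0.39, adjusted p = 0.0446) and quantile normalization (-0.40, adjusted p = 0.0279), with a range up to 0.145. Without Ahrr-/- M1 and M3, both of them male, Cish was still called (-0.80, adjusted p = 0.0353) and Socs2 was not (-0.66, adjusted p = 0.063). Over all alternatives the adjusted p of Socs2 lay between 0.00251 and 0.063 and that of Cish between 0.00242 and 0.0421. The remaining 5 members differed by -0.23 (Stat5b) to -0.05 (Jak2, which was 0.07 under quantile normalization and 0.10 without M1 and M3), and the median over the 9 was -0.23 against 0.01 for all genes.

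Of the 68 other pathway genes 6 were called between the sexes, all lower in males, against 3.06% of all genes in either direction. They were the IL-10 receptor chains Il10ra (-0.75, adjusted p = 0.0128) and Il10rb (-0.48, adjusted p = 0.0361), the interferon receptor chain Ifnar1 (-0.55, adjusted p = 0.0345), the cytokines Il6 (-1.31, adjusted p = 0.0382) and Osm (-0.72, adjusted p = 0.0499), and Bcl3 (-0.69, adjusted p = 0.00107). Bcl3 alone was called in every alternative that tested it. The other 5 calls were lost without Ahrr-/- M1 and M3 (adjusted p = 0.0561, 0.106, 0.0979, 0.115 and 0.0887 in the order named). Those of Il10rb, Ifnar1, Il6 and Osm were also lost with no minimum mean and without many single libraries. Apart from single libraries left out, the alternatives gave differences of -0.87 to -0.61, -0.56 to -0.42, -0.59 to -0.50, -1.66 to -1.22 and -0.85 to -0.68. Markers of the immediate early response were also lower in males in 5 of 14 genes, with summed normalized counts from 43111 to 97516 in males (median 55195) and from 58920 to 96298 in females (median 71766). Of other markers, 1 of neutrophils and 1 of mast cells were called lower in males, and 1 macrophage, monocyte and dendritic cell marker higher. Of these, the neutrophil and macrophage, monocyte and dendritic cell calls and 2 of the 5 immediate early calls were lost without Ahrr-/- M1 and M3, and the mast cell call in other alternatives. The part of these markers in the sex differences was not tested.

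Whether the genotype difference itself depended on sex was tested with an interaction term. Limma called 0 members and 0 of 11346 genes for Ahr-/- against WT (0%), and 0 members and 0 of 11546 genes for Ahrr-/- against WT (0%), and voom on counts also called 0 members in both. At an unadjusted p below 0.05 there were 533 genes and 0 members in the first and 544 genes and 1 member, Jak2, in the second, where its term was -0.70 (SE 0.30, limma adjusted p = 0.727). The term for Socs2 was 0.24 (SE 0.36, adjusted p = 0.96) and -0.42 (SE 0.42, adjusted p = 0.75), and it was -0.66 (SE 0.27, adjusted p = 0.95) for Ahrr-/- against Ahr-/-. In that comparison limma called 0 members and 0 of 11474 genes (0%), while at an unadjusted p below 0.05 there were 375 genes and 2 members, Socs2 and Jak2, the latter with a term of -0.74 (adjusted p = 0.95). The unequal gaps between the sexes seen in the plot of normalized counts by sex did not pass this test.

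Variation of the members within groups was then examined. After the mean of each genotype and sex was subtracted, 36 pairs of the 9 tested members were correlated over the 18 libraries, with 100000 two-sided permutations within genotype and sex and adjustment over the pairs. Of these, 11 passed by Pearson's r and 10 by both r and Spearman's rho, and the median r was 0.55, with 77.8% of pairs positive. Over all 65751778 pairs of the 11468 genes tested, the median r was 0.00 with 49.8% positive, and 9.53% had an r above 0.55. An absolute r of at least 0.66, the lowest that passed, was found in 33.3% of the member pairs and 8.74% of all pairs. These are shares across gene pairs, which are not independent, and the part of library composition in them was not tested. The highest was Jak1 with Stat3 (r = 0.94, permutation p = 4e-05, adjusted 0.0011; rho = 0.92, p = 0.00017, adjusted 0.0016). It was 0.88 without the 2 libraries farthest from the median of Jak1, and 0.85 in WT, 0.84 in Ahr-/- and 0.97 in Ahrr-/-. Without Ahrr-/- M1 and M3 it was 0.92. In each r without the 2 farthest libraries, the means subtracted still included those libraries, so their influence was not fully removed. Without M1 and M3 the means were taken again, with Ahrr-/- M2 as the only male of its genotype. M2 then equalled its own mean and added nothing to each such r. Cish, the feedback gene, went with Stat3 (r = 0.84, permutation p = 6e-05, adjusted 0.0011; rho = 0.93, p = 9e-05, adjusted 0.0016; r = 0.78 without the 2 farthest) and with Stat5b (r = 0.82, permutation p = 0.00022, adjusted 0.0019; rho = 0.86, p = 0.00016, adjusted 0.0016; r = 0.81), and without Ahrr-/- M1 and M3 these were 0.77 and 0.84. The other positive pairs that passed had r from 0.66 (Stat6 with Cish) to 0.90 (Stat3 with Stat5b), and r from 0.58 to 0.88 without the 2 farthest libraries. Within Ahr-/- some of the pairs that passed had a lower r, and others a higher one. Jak1 with Stat5b (r = 0.81 over all) was 0.04 there, against 0.80 in WT and 0.89 in Ahrr-/-. Jak1 with Stat6, Jak2 with Stat6 and Stat3 with Stat5b were 0.37, 0.46 and 0.47 there, against 0.82 to 0.97 in the other 2 groups. Stat3 with Cish was 0.98 there, against 0.69 in WT and 0.96 in Ahrr-/-. Stat6 with Cish was 0.81, against 0.58 and 0.76. Each of these r rests on 6 libraries, and the differences between genotypes were not tested. Stat3 with Stat6 (r = 0.77) was at the threshold, with an adjusted p of 0.05 by r and 0.052 by rho.

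Socs3 differed in direction. Over the 18 libraries its r with the other 8 members was negative, from -0.76 to -0.06, and passed with Stat6 alone (permutation p = 0.00053, adjusted 0.0032; rho = -0.77, p = 0.00079, adjusted 0.0047). That r was again -0.76 without the 2 libraries farthest from the median of Stat6 and -0.75 without Ahrr-/- M1 and M3, and it was -0.48 in WT, -0.81 in Ahr-/- and -0.91 in Ahrr-/-. In pairs that did not pass, the sign was not the same everywhere: Socs2 with Socs3 gave -0.47 in WT, 0.93 in Ahr-/- and -0.50 in Ahrr-/-, and 0.00 without the 2 farthest libraries. Jak1 with Socs3 was 0.17 in Ahr-/-, and Stat5a with Socs3 was 0.32 in WT, with a rho of 0.02 over all libraries. Pairs without Socs3 turned as well: Jak2, Stat5b and Stat6 with Socs2 gave 0.89, 0.85 and 0.77 in WT. The same pairs gave -0.82, -0.88 and -0.87 in Ahr-/-, and 0.48, 0.64 and 0.43 in Ahrr-/-. Jak1 with Jak2 gave 0.90, -0.50 and 0.64 in the same order of groups. Socs2 and Cish, both lower in males, gave r = 0.57 (permutation p = 0.084, adjusted 0.13; rho = 0.46, p = 0.14, adjusted 0.2), with 0.39 without the 2 farthest, 0.94 in WT, -0.54 in Ahr-/- and 0.19 in Ahrr-/-, and 0.80 without Ahrr-/- M1 and M3. This pair did not pass, and no difference in r between genotypes was tested.

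**Figure D5:**
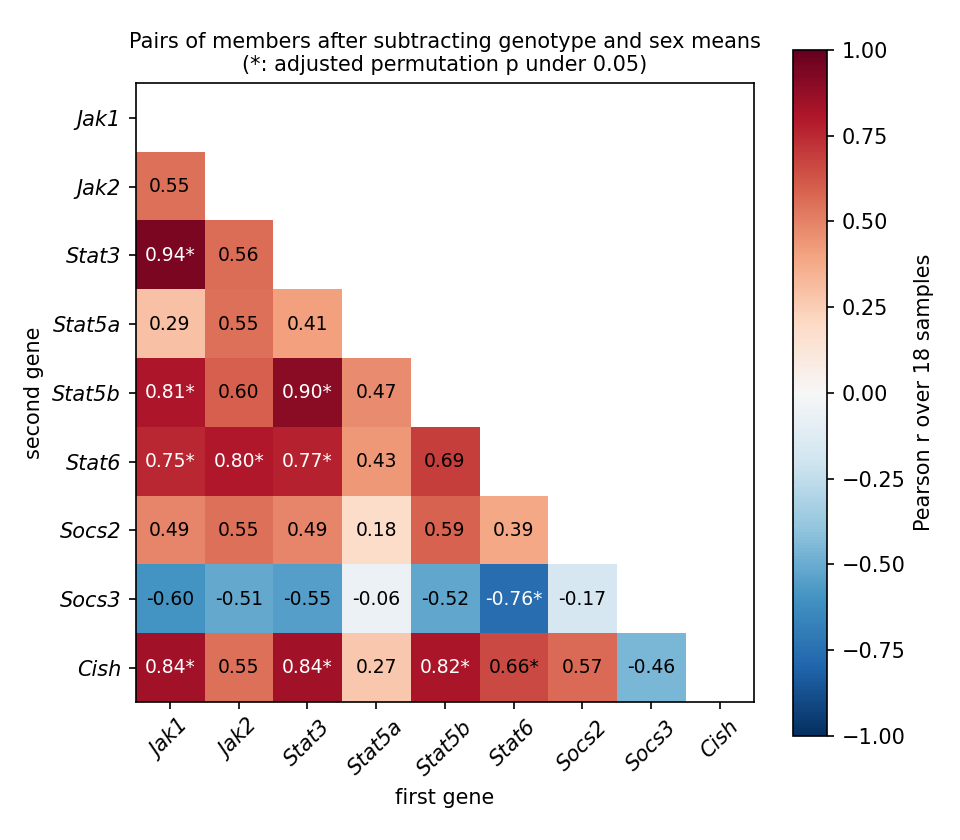
Pearson r (colour and printed value) between pairs of the 9 tested members (x axis first gene, y axis second gene) over 18 libraries after subtracting the mean of each genotype and sex. Asterisks mark an adjusted permutation p under 0.05; 11 pairs carry one, and the row of Socs3 is negative.

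The genes most like each feedback gene over the same 18 libraries were sought among all genes tested. For Cish they were Zswim4 (r = 0.97, rho = 0.92), Arhgef3 (r = 0.94, rho = 0.96) and Ankrd33b (r = 0.94, rho = 0.93). For Socs2 they were Thada (r = 0.89, rho = 0.82), Marchf7 (r = 0.87, rho = 0.74) and Pnpla8 (r = 0.87, rho = 0.80). For Socs3 they were Dab2 (r = 0.87, rho = 0.84), Pld4 (r = 0.86, rho = 0.84) and Cd74 (r = 0.86, rho = 0.86), the last of which is on the macrophage, monocyte and dendritic cell list. For Socs1, whose counts were near the floor, they were Etv6 (r = 0.92, rho = 0.86), Borcs6 (r = 0.89, rho = 0.87) and Abtb1 (r = 0.88, rho = 0.79). These are the highest values of a search across the table and are given as a description, with no p.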

How the data were processed

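Single-ended reads were aligned to GRCm38 and counted by the authors with nf-core/rnaseq, and the submitters' processing notes name STAR 2.5.2, RSEM 1.3.0 and DESeq2. What the authors deposited are gene counts divided by a size factor and passed through a variance-stabilizing transformation to a log2 scale, which shrinks differences of genes with low counts. The transformation was turned back, and 100% of values came out as whole counts (tolerance 0.0001). These gave depth, normalized counts and alternatives.

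Genotypes were compared in 12 samples at a time with limma 3.58.1 in R 4.3.3 (mean-variance trend, sex as covariate), over genes whose mean was at least 1 above the lowest value, with Benjamini-Hochberg adjustment over all of them and a threshold of 0.05. The fits were tested on simulated data. Further software was scipy 1.17.1, numpy 2.4.6, matplotlib 3.10.9 and pandas 2.3.3 in Python 3.11.15. The members and lists were chosen with earlier results of these data known. Named were the members, Ahr and Ahrr, called genes of 7 pathway lists (at most 6 per list), the top and absent genes of 9 marker lists (eosinophil; neutrophil; macrophage, monocyte and dendritic cell; mast cell and basophil; B and plasma cell; epithelial; pancreatic acinar; fibroblast and endothelial; dissociation and immediate early) and the 3 genes most like each feedback gene. Named outside this rule, after their values were seen, were Il5, Il3, Csf2, Siglecf, Epx, Prg2, Prg3, Ear1, Ear2, S100a8 and S100a9. Results of 2 further marker lists are not reported here. For Ahrr-/- no source says that samples are separate animals, so p-values measure the spread between samples. Alternatives changed the filter, scaling, covariates, spread model, scale and samples. The comparisons with WT share the WT samples, and those with Ahr-/- share the Ahr-/- samples.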

Additional observations from a re-analysis of the deposited data

Results flagged for a closer look

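In each of the 3 groups the highest and lowest library of each of the 10 members were compared with the nearest other library. Of the 30 groups examined, 1 had a library beyond the limit for 6 values: Stat3 in WT F2 was 11.23, the highest of its group, with the nearest at 10.78, a gap of 0.64 of the whole range. Chance alone takes about 1 in 20 groups past it. Without WT F2 the difference of Stat3 between Ahr-/- and WT kept its side of the threshold.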

How the results depend on the processing

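Over 823 refits of the differences of the 9 tested members, 780 kept their direction and their side of the threshold, 10 newly passed it and 1 no longer did; 32, all of differences that were not called, changed sign. Of 2023 refits of the other named genes, 1605 kept both, 411 no longer passed and 7 newly did. Under quantile normalization Jak1 was -0.02 in Ahr-/- against WT, Stat3 0.00 in Ahrr-/- against WT and Jak2 0.07 in males against females. Without Ahrr-/- M1 and M3, chosen after seeing the data, Stat3, Stat5a, Stat6 and Socs2 were 0.11, 0.04, 0.03 and 0.01 in Ahrr-/- against WT, Jak2 and Stat3 were 0.07 and 0.00 in Ahrr-/- against Ahr-/-, and Jak2 was 0.10 in males against females. Without single libraries, Stat3 and Stat6 lay between -0.04 and 0.10 and between -0.09 and 0.07 in Ahr-/- against WT. In Ahrr-/- against WT the limits were -0.15 and 0.11 for Stat3, -0.18 and 0.02 for Stat6, -0.13 and 0.14 for Socs2 and -0.01 and 0.33 for Cish. In Ahrr-/- against Ahr-/- they were -0.17 and 0.05 for Stat3 and -0.20 and 0.01 for Stat5b, and for Jak2 by sex -0.11 and 0.02. The genes called in Ahr-/- against WT were 553 with all 18 samples in the fit and 623 to 1124 without single libraries, and the members 1 to 2. In Ahrr-/- against WT the genes called were 4 with no minimum mean, median centring, a replicate block, log2(count + 1) or voom, 5 with a minimum mean of 3 or quantile normalization, 14 with all 18 samples and 4 to 25 without single libraries. In Ahrr-/- against Ahr-/- they were 828 with a minimum mean of 3 (fewer genes tested), 994 without the sex covariate, 558 without M1 and M3 (fewer samples) and 818 to 2574 without single libraries, and 1 member was called with a minimum mean of 3, where Socs3 was not tested. By sex, the members called were 4 under quantile normalization, 1 without M1 and M3 and 2 to 3 without single libraries, and the genes 163 with no minimum mean, 134 without M1 and M3 and 142 to 733 without single libraries. Beyond those named as fewer genes or samples, the cause was not tested. The replicate numbers did not pair the samples: same-numbered samples correlated between -0.59 and 0.47 over 18 pairs, and the best match had the same number in 8 of 36. With the number as a block, 918, 4 and 1946 genes and 1, 0 and 2 members were called.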
